A study of Homo sapiens with 30 samples.

Results

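The lamin genes LMNB1, LMNB2 and LMNA were followed through 8 RNA libraries of the line HEK293FT, which derives from human embryonic kidney. They are all 3 lamin genes among 27630 gene rows, chosen by symbol with earlier results of these data known, and all 3 passed the filter on low counts that left 16504 genes for testing. The libraries form 4 groups of 2: a nuclear fraction, a cytosolic fraction, a native lamina preparation and a lamina preparation fixed with PFA (paraformaldehyde), called fixed lamina here. Every group came from asynchronous cells transfected, by lipofection, with a construct that joins lamin B1 to APEX2, a peroxidase that labels molecules close to it. The fractions therefore carry the construct too, and no untransfected or unlabelled library was among those analysed here. Domains of the genome at the lamina came from another line, HCT116 (human colorectal carcinoma), as 1 list for each of G1, S and G2.

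Lamins are the intermediate filament proteins of the nucleus, which form a meshwork beneath the inner nuclear membrane that carries chromatin and membrane proteins. LMNB1 and LMNB2 encode the B-type lamins, which keep a farnesyl anchor and occur in nearly all cells. LMNA encodes lamins A and C by alternative splicing. Its longer product is farnesylated, trimmed by the protease ZMPSTE24 and released from the membrane, and its level differs widely between tissues. Counts per gene do not separate lamin A from lamin C.

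In the hg19 coordinates of the deposited tables, LMNB1 lies on chromosome 5 from 126112315 to 126172712 on the plus strand, with 3481 exonic bases. LMNB2 lies on chromosome 19 from 2428163 to 2456966 on the minus strand, with 4644 exonic bases. LMNA lies on chromosome 1 from 156052337 to 156109880 on the plus strand, with 4104 exonic bases. No other row has an exon that overlaps an exon of these genes. MIR7108, a microRNA row inside LMNB2 but between its exons, had 0 to 2 counts per library.

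Total counts ran from 2321291 in fixed lamina replicate 2 to 8557777 in native lamina replicate 1, and intervals from counts cover counting error only. All 5 genes listed as typical of HEK293FT reached 1 CPM (counts scaled to library size) somewhere, as did 4 of 5 markers of HCT116. Of the 5 markers of the blood line K562, 1 did so, and 4 were at 3 counts or fewer in every library. The HCT116 marker CDX2 had 9.34 to 48.4 normalised CPM. In the HEK293FT list NEFL had 39.5 to 232, but PAX2 had 0.0 to 6.25 and LHX1 2.54 to 8.55. These lists therefore do not separate HEK293FT from HCT116. Between the fractions, 3 of 4 nuclear RNAs were called toward the nuclear side and 4 of 4 cytosolic mRNAs toward the cytosolic side, while MEG3, the remaining nuclear RNA, was near 0. The fixed replicates stood furthest apart, with r = 0.911 across genes against 0.966 for the native ones. Fixed replicate 1 was closer to the cytosolic libraries (r = 0.957 and 0.951) than to its own replicate, and fixed replicate 2 was closer to the native ones (0.951 and 0.942). MALAT1, a nuclear RNA, had 595 normalised CPM in fixed replicate 1 and 3080 in fixed replicate 2. LMNB1, LMNB2 and LMNA differed between these 2 replicates by 1.19-fold, 1.08-fold and 1.23-fold. These are bulk fractions, in which fewer cells of a state and less RNA per cell cannot be told apart. The labels do not say whether replicates are separate cultures, so p-values measure the spread between these libraries, which may be technical.

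LMNB1 was the dominant lamin row everywhere and rose at the lamina. LMNB1 had 20758 and 20414 counts in the nuclear libraries, against 31391 and 30184 in cytosolic ones. The native lamina libraries held 736084 and 177592, and the fixed lamina libraries 520808 and 220200. Every lamina library lay above every fraction library, although fixed replicate 2 was the shallowest of the 8. After TMM scaling (a factor that balances the bulk of genes between libraries), LMNB1 stood at 3231 and 3507 normalised CPM in the nuclear fraction and at 4197 and 6383 in the cytosolic one. It stood at 76513 and 26168 at the native lamina, and at 96237 and 81004 at the fixed lamina. Among all gene rows it ranked between 6th and 10th in the fractions and between 1st and 4th at the lamina.

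The LMNB1 row counts the endogenous transcript and any reads of the construct together, so its values are not a measure of endogenous lamin B1 mRNA alone. How much of the row comes from the construct was not tested. The native replicates differed by 2.92-fold in LMNB1, and 97.0% of the genes tested had a smaller gap between these libraries. The fixed replicates differed by 1.19-fold.

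LMNB2 followed another order: it was lowest in the nuclear fraction and highest in the cytosolic one. Its counts were 618 and 773 in the nuclear, 2952 and 2107 in the cytosolic, 2715 and 2557 in the native lamina and 1353 and 732 in the fixed lamina libraries. In normalised CPM the nuclear libraries had 96.2 and 133, and the cytosolic ones 395 and 446. At the lamina LMNB2 had 282 and 377 in the native and 250.0 and 269 in the fixed libraries. On this scale all 4 lamina libraries lay between the fractions, above both nuclear and below both cytosolic libraries. The upper limit depended on the scaling. In CPM without TMM factors, native replicate 2 had 427, above both cytosolic libraries at 405 and 363. Under total counts the log2 fold change of native lamina against the cytosolic fraction was -0.05.

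LMNA was the least abundant and the most even. Its counts were 321 and 345 in the nuclear, 603 and 288 in the cytosolic, 518 and 493 in the native lamina and 281 and 174 in the fixed lamina libraries. In normalised CPM, LMNA had 49.96 and 59.3 in the nuclear, 80.6 and 60.9 in the cytosolic, 53.8 and 72.6 in the native lamina and 51.9 and 64.0 in the fixed lamina libraries. The lamina libraries overlapped those of both fractions. Counting error alone amounted to 7.58% of the count in fixed replicate 2, where LMNA had its fewest reads, and to 4.07% in cytosolic replicate 1, where it had most.

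**Figure D1:**
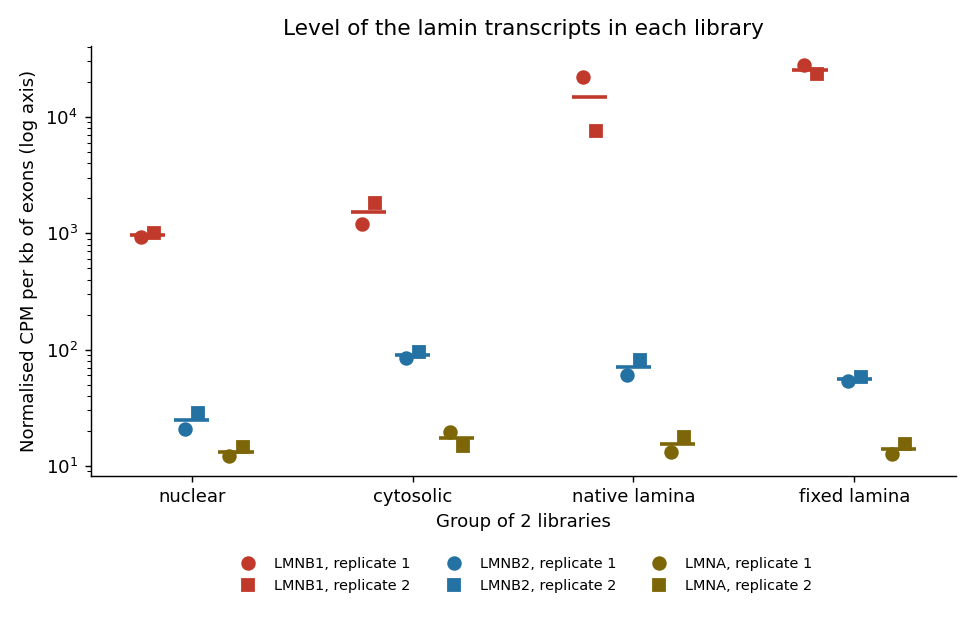
Level of each lamin gene in normalised CPM per kb of exons (vertical log axis) in the 4 groups; circles are replicate 1, squares are replicate 2 and bars are the mean of 2 libraries. LMNB1 lies far above the other lamins in every group and is higher in all 4 lamina libraries, LMNB2 is lowest in the nuclear libraries, and LMNA is nearly level.

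Levels of different genes can be set side by side per kb of exons. On that scale LMNB1 had 968 ± 56.2 normalised CPM per kb in the nuclear fraction (SD, n = 2), 1520 ± 444 in the cytosolic one, 14750 ± 10230 at the native lamina and 25460 ± 3094 at the fixed lamina. LMNB2 had 24.6 ± 5.58, 90.5 ± 7.74, 71.0 ± 14.4 and 55.9 ± 2.93 in the same order. LMNA had 13.3 ± 1.61, 17.2 ± 3.40, 15.4 ± 3.24 and 14.1 ± 2.08. The order LMNB1 over LMNB2 over LMNA held in each of the 8 libraries. This is an order of rows, since the LMNB1 row includes any reads of the construct. The lengths merge all annotated exons of a gene, which for LMNA are 82 entries. Of all lamin reads, LMNB1 took 89.8 to 95.7% in the fraction libraries and 98.3 to 99.7% in the lamina libraries.

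Between the fractions, LMNB2 passed the test and LMNB1 and LMNA did not. Cytosolic libraries held 3.67-fold more LMNB2 than nuclear ones, with a log2 fold change (nuclear minus cytosolic) of -1.88 (SE 0.31, 95% interval -2.54 to -1.22, adjusted p = 9.27e-04, edgeR quasi-likelihood test). This call held with each library left out in turn, with log2 fold changes from -2.15 to -1.67. LMNB1 had -0.65 (-1.91 to 0.61, edgeR adjusted p = 0.375) and LMNA -0.38 (-0.99 to 0.24, edgeR adjusted p = 0.292). For these genes too, both nuclear libraries lay below both cytosolic ones, and whether the lamins differ from each other in this change was not tested. Between these fractions 47.3% of all tested genes passed, so a called gene is common in this comparison.

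Native lamina was compared with both fractions, to ask which lamin transcripts were higher in that preparation than in the fractions. Against the nuclear fraction LMNB1 was 15.2-fold higher (log2 fold change 3.93, 95% interval 2.52 to 5.34, edgeR adjusted p = 0.010). That was the largest rise among the 10695 tested genes with a mean of at least 10 CPM, and the 4th largest of all 16504. LMNB2 was 2.88-fold higher (1.52, 0.87 to 2.18, edgeR adjusted p = 0.0165), 176th by rise among the 10695 genes. A rise of this size was not particular to lamins. Of the 4 cytosolic mRNAs, ACTB had 1.48 (edgeR adjusted p = 0.0291), while GAPDH (0.54), EEF1A1 (0.41) and RPLP0 (-0.02) did not pass. LMNA had 0.21 (-0.40 to 0.82, edgeR adjusted p = 0.661). In this comparison 7.31% of tested genes passed. Against the cytosolic fraction, where 13.8% of genes passed, LMNB1 was 9.71-fold higher (3.28, 1.91 to 4.65, edgeR adjusted p = 0.00902), 15th by rise among the 10695 genes and 441st of all 16504. There LMNB2 had -0.35 (-0.99 to 0.29, edgeR adjusted p = 0.437) and LMNA -0.17 (-0.78 to 0.45, edgeR adjusted p = 0.721).

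These native lamina calls rest on few libraries. Without nuclear replicate 1 or 2, LMNB1 against the nuclear fraction had 3.87 (edgeR adjusted p = 0.138) and 4.01 (0.0823). Without native replicate 1, the library with most LMNB1, its log2 fold change was 2.97 and still passed. Against the cytosolic fraction LMNB1 had 3.0 (edgeR adjusted p = 0.119) and 3.61 (0.0891) without cytosolic replicate 1 or 2, and 2.3 without native replicate 1. LMNB2 against the nuclear fraction had 1.31 (edgeR adjusted p = 0.207) without nuclear replicate 1, 1.79 (0.0885) without nuclear replicate 2 and 1.32 (0.101) without native replicate 2.

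Fixed lamina gave the same arrangement of the lamins, measured against the same fraction libraries. Against the nuclear fraction, where 17.4% of genes passed, LMNB1 was 26.3-fold higher (log2 fold change 4.72, 95% interval 3.25 to 6.18, edgeR adjusted p = 0.00533). It was again first by rise among the 10695 genes, and 3rd of all 16504. LMNB2 was 2.27-fold higher (1.18, 0.53 to 1.83, edgeR adjusted p = 0.0222), 1104th by rise among the 10695 genes. Against the cytosolic fraction, where 0.673% of genes passed, LMNB1 was 16.8-fold higher (4.07, 2.64 to 5.49, edgeR adjusted p = 0.0362), 3rd by rise among the 10695 genes and 288th of all tested. LMNB2 had -0.69 there (-1.34 to -0.05, edgeR adjusted p = 0.2), with both fixed libraries below both cytosolic ones. LMNA had 0.08 (-0.54 to 0.70) against the nuclear fraction and -0.29 (-0.91 to 0.33) against the cytosolic one, with edgeR adjusted p = 0.865 and 0.576.

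Without fixed replicate 1, the library close to the cytosolic ones, LMNB1 still passed at 4.6 against the nuclear and 3.89 against the cytosolic fraction, and LMNB2 at 1.24 against the nuclear one (edgeR adjusted p = 0.0448). The fixed lamina calls did depend on single fraction libraries. LMNB1 against the nuclear fraction had 4.65 (edgeR adjusted p = 0.0815) without nuclear replicate 1. Against the cytosolic fraction it had 4.06 (edgeR adjusted p = 0.0526) without nuclear replicate 1, 3.79 (0.189) without cytosolic replicate 1 and 4.39 (0.268) without cytosolic replicate 2. LMNB2 against the nuclear fraction had 0.96 (edgeR adjusted p = 0.201) and 1.44 (0.0669) without nuclear replicate 1 or 2, and 1.18 (0.0632) when only those 4 libraries were fitted.

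Between the preparations no gene passed (0.0% of tested genes by edgeR). At an unadjusted p under 0.05 there were 1821 genes, the Wald test of DESeq2 called 230, and 742 passed in edgeR without fixed replicate 2. LMNB1 was 0.79 higher in fixed than in native lamina on the log2 scale (-0.48 to 2.05, edgeR adjusted p = 0.647). The interval takes in differences of up to 4.14-fold. Fixed libraries exceeded native ones by 0.08 to 1.88 over the 4 pairs, and the larger values are those with native replicate 2. The difference was 1.75 without native replicate 1 and 0.205 without native replicate 2, and passed in neither case. LMNB2 had -0.34 (-0.98 to 0.29) and LMNA -0.13 (-0.75 to 0.49), with edgeR adjusted p = 0.699 and 0.901.

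With all 4 lamina libraries set against all 4 fraction libraries, LMNB1 was 15.98-fold higher (log2 fold change 4.0, SE 0.47, 95% interval 3.0 to 5.0, edgeR adjusted p = 0.00431). It ranked 3rd of all tested genes by fold change and by p, in a comparison in which 0.218% of genes passed. The lowest lamina library stood 2.04 above the highest fraction library on the log2 scale. The change stayed between 3.51 and 4.29 when single libraries were left out, and the edgeR adjusted p then reached 0.0546 and 0.0516 without nuclear replicate 1 or 2, and 0.136 and 0.169 without cytosolic replicate 1 or 2. LMNB2 had 0.42 (-0.04 to 0.87, edgeR adjusted p = 0.363), higher in 8 of 16 pairs of libraries. LMNA had -0.04 (-0.48 to 0.39, edgeR adjusted p = 0.943), also higher in 8 of 16 pairs, and 0.19 when libraries were scaled to total counts.

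**Figure D2:**
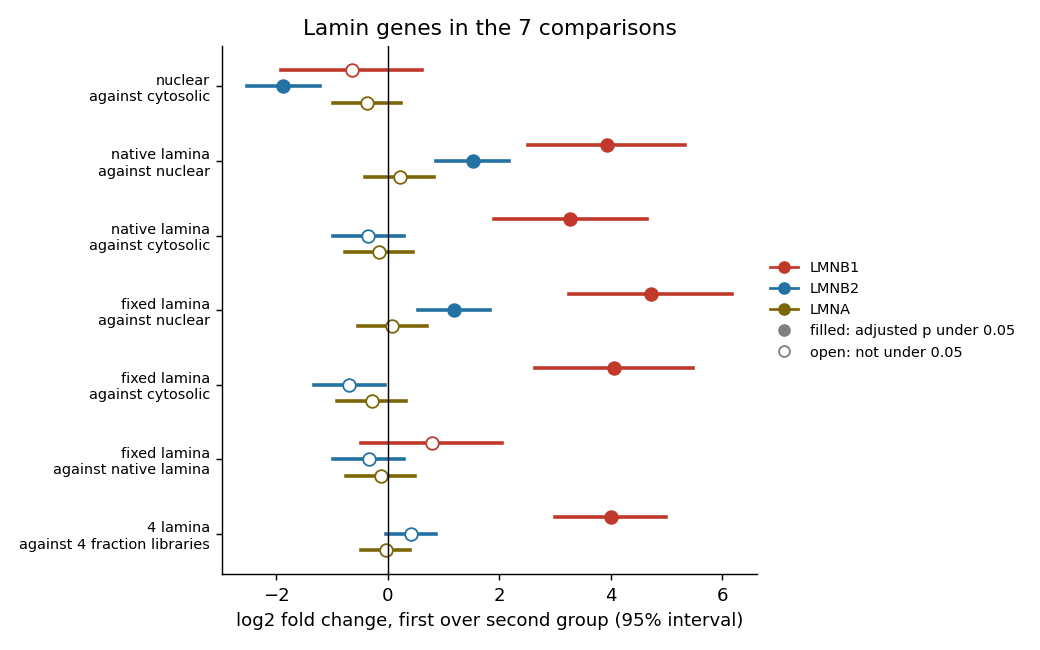
Log2 fold change of each lamin gene in the 7 comparisons (horizontal axis, first group over second) with its 95% interval from the edgeR fit; filled points have an adjusted p under 0.05. LMNB1 is right of 0 in all 5 comparisons of lamina with fractions, LMNB2 passes in the 3 comparisons that involve the nuclear fraction alone, and every LMNA interval includes 0.

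In the order of group means, only 1 step of LMNB1 passed the test, that from the cytosolic fraction to the native lamina. The steps from nuclear to cytosolic and from native to fixed lamina did not pass. For LMNB2 the order was nuclear, fixed lamina, native lamina, cytosolic, and only the step from nuclear to fixed lamina passed. No step of LMNA passed, and the libraries overlapped at each.

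Ratios of the lamins within a library do not depend on how libraries are scaled. The ratio of LMNB1 to LMNB2 counts was 33.6 and 26.4 in the nuclear, 10.6 and 14.3 in the cytosolic, 271 and 69.5 in the native lamina and 385 and 301 in the fixed lamina libraries. The lowest lamina value was above the highest fraction value, and the mean log2 ratio was 3.49 higher at the lamina (11.3-fold). An exact two-sided permutation test over the 8 libraries gave p = 0.0286, the smallest it can give, and 0.0429 adjusted over the 3 ratios. For all 3 ratios the test treats the 8 libraries as separate units, although they form 4 groups of 2 whose replicates may be technical. The difference ran from 3.21 to 4.04 with single libraries left out.

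The ratio of LMNB1 to LMNA counts was 64.7 and 59.2 in the nuclear, 52.1 and 105 in the cytosolic, 1421 and 360 in the native lamina and 1853 and 1266 in the fixed lamina libraries. It was 15.5-fold higher at the lamina (3.95 on the log2 scale, exact permutation p = 0.0286, adjusted 0.0429), and the groups again did not overlap.

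The ratio of LMNB2 to LMNA counts separated the nuclear fraction from the rest. Nuclear libraries had 1.93 and 2.24, cytosolic ones 4.90 and 7.32. The ratio was 5.24 and 5.19 in the native lamina and 4.82 and 4.21 in the fixed lamina libraries. The lamina and fraction libraries overlapped (difference 0.46 on the log2 scale, exact permutation p = 0.371, adjusted 0.371). The cytosolic libraries lay in or above the lamina range and the nuclear ones below it.

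**Figure D3:**
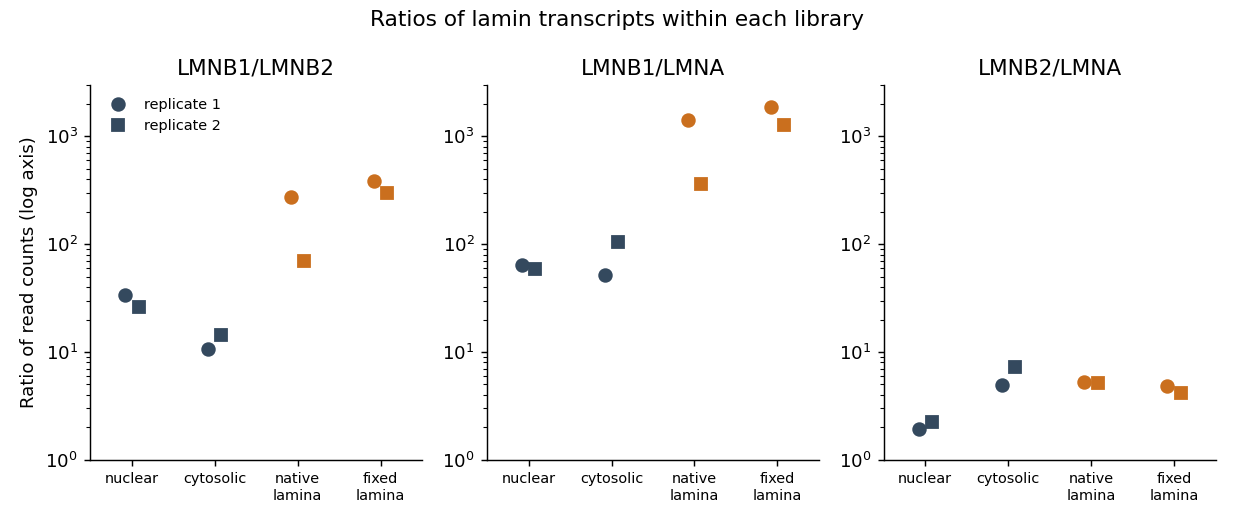
Ratio of read counts of each pair of lamin genes in each library (vertical log axis, shared by the 3 panels); dark points are fraction libraries, orange points are lamina libraries, circles are replicate 1 and squares replicate 2. LMNB1 exceeds LMNB2 and LMNA by more in all 4 lamina libraries, at 69.5 or above and 360 or above, while LMNB2 to LMNA is low only in the nuclear libraries, at 1.93 and 2.24.

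The nearest expressed genes on either side of each lamin gene were read as well. Because the LMNB1 row also counts any reads of the transfected construct, they cannot show whether a change at the LMNB1 locus extended to its surroundings. PHAX, an adaptor for export of small nuclear RNAs, ends 149371 bases below LMNB1 and had a log2 fold change of 0.32 between lamina and fraction libraries (edgeR adjusted p = 0.503). MARCH3, a ubiquitin ligase gene with 25 to 78 counts per library, begins 30694 bases above LMNB1 and had -0.33 (edgeR adjusted p = 0.634). Neither passed in any of the 7 comparisons. Beside LMNB2, TIMM13 (a mitochondrial import chaperone, 249 bases away) had a nuclear minus cytosolic change of -1.06 (edgeR adjusted p = 0.0148). TIMM13 also passed in native lamina against the cytosolic fraction, at -1.10 (edgeR adjusted p = 0.0352), and in fixed lamina against the nuclear one, at 1.03 (edgeR adjusted p = 0.0406). GADD45B (a stress response gene, 19157 bases away) had a nuclear minus cytosolic change of -1.11 (edgeR adjusted p = 0.0355). Beside LMNA, MEX3A (an RNA-binding protein, 548 bases away) was 0.98 higher in native lamina (edgeR adjusted p = 0.0435) and 1.03 higher in fixed lamina (edgeR adjusted p = 0.024) than in the nuclear fraction. SLC25A44, the mitochondrial carrier gene on the other side at 53843 bases, passed in no comparison.

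None of the lamin genes lay in a lamina domain of HCT116, or within 100 kb of one, in any stage. The share of all genes outside these domains, and their usual distance, was not tested. Lying outside therefore cannot be read as a trait of the lamin genes. LMNA was nearest, 2.09 Mb from a domain in G1 and S and 2.19 Mb in G2. LMNB1 was 9.43 Mb away in G1, closer in G2 at 6.43 Mb, and 9.73 Mb away in S. LMNB2 was 17.4 Mb away in both G1 and S, and 9.64 Mb in G2. The domains and the RNA come from different cell lines, and the lists carry no scores or replicates.

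Across the 8 libraries, the genes whose normalised log2 CPM was most like that of each lamin were taken from 10511 genes. These correlations are descriptions over 8 libraries that share groups and depths, and since the genes were picked for them, their changes between groups are descriptions too. For LMNB1 they were ANKRD1 (Pearson r = 0.984), an ankyrin-repeat protein known as a target of the regulator YAP, MBNL1 (0.983), a splicing regulator, and PPP1R3D (0.967), a targeting subunit of protein phosphatase 1. The choice depends on the measure: by Spearman's rho they ranked 54th, 5th and 16th. The size of their rise was smaller: ANKRD1 had a log2 difference of 2.70 between lamina and fraction libraries, from 3.61 to 8.46 normalised CPM in the fraction libraries to 18.3 to 47.7 in the lamina libraries. MBNL1 had a difference of 0.74 and PPP1R3D of 0.55, beside 4.0 for LMNB1.

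For LMNB2 they were H1FX (r = 0.992), a linker histone gene, KIAA1522 (0.991) and MSN (0.990), which encodes the membrane-to-actin linker moesin. By Spearman's rho they ranked 106th, 9th and 25th. Their log2 differences between nuclear and cytosolic RNA were -2.01, -1.53 and -1.98, beside -1.88 for LMNB2. Those of native lamina against the nuclear fraction were 1.56, 1.17 and 1.56, beside 1.52 for LMNB2. H1FX ran from 48.2 normalised CPM in nuclear replicate 1 to 279 in cytosolic replicate 2, with 149 to 226 at the lamina. For LMNA they were PRPF31 (r = 0.944), a spliceosome gene, RSAD1 (0.933) and C2orf68 (0.929), which ranked 1st, 17th and 23rd by Spearman's rho. Between the lamins themselves r was 0.32 for LMNB1 with LMNB2, -0.19 for LMNB1 with LMNA and 0.63 for LMNB2 with LMNA.

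**Figure D4:**
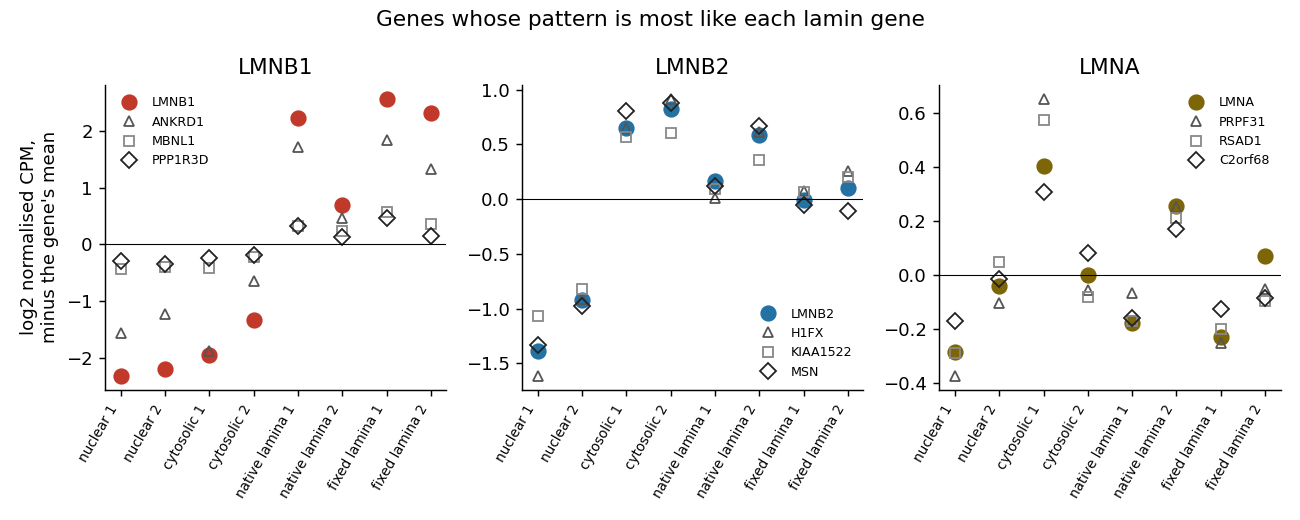
Log2 normalised CPM minus the gene's own mean (vertical axis, scaled per panel) in each of the 8 libraries (horizontal axis) for each lamin gene (filled) and the 3 genes most like it (open). The genes like LMNB1 are high in the 4 lamina libraries with smaller steps than LMNB1, and those like LMNB2 are lowest in the 2 nuclear libraries.

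The genes that act on lamins or bind them were read from 4 lists of 39 genes, of which 36 passed the filter. Their counts between the fractions are to be read against all tested genes, of which 47.3% passed there, 4314 of 16504 higher and 3497 lower in the nuclear fraction. Of the 5 genes that process the lamin tail, 2 were lower in the nuclear fraction and 3 did not pass, a share near that of all genes. The median log2 fold change was 0.22, beside 0.13 over all genes tested. FNTA, the shared alpha subunit of farnesyltransferase, had -1.51 (SE 0.34, edgeR adjusted p = 0.00372). ICMT, which methylates the farnesylated end, had -1.16 (SE 0.32, edgeR adjusted p = 0.00966), and this call was lost without nuclear replicate 1 or cytosolic replicate 1. The beta subunit FNTB had 0.22, the protease RCE1 0.72 and ZMPSTE24 0.75. Between lamina and fraction libraries none of the 5 passed, and 1 had an unadjusted p under 0.05. Of all 16504 tested genes, 0.218% passed there and 2576 had an unadjusted p under 0.05. In the single comparisons, FNTA and ICMT were higher in fixed lamina than in the nuclear fraction, where 17.4% of all genes passed. None of the 5 passed in native lamina against the nuclear fraction, or in either preparation against the cytosolic one.

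Of 14 lamin and lamina partners, 7 were higher in the nuclear fraction, 3 were lower and 4 did not pass, where 47.3% of all genes passed. The median of the list was 0.61, beside 0.13 over all genes. The higher ones were SUN2, IFFO1, SUN1, TMEM43, LEMD3, LBR and LEMD2, which include the SUN proteins that join lamins to the cytoskeleton and LBR, the receptor of B-type lamins. SUN2 had 91.0 and 82.8 normalised CPM in nuclear and 27.8 and 22.6 in cytosolic libraries, a change of 1.78 on the log2 scale (SE 0.37, edgeR adjusted p = 0.00242). The lower ones were BANF1, EMD and TMPO, which encode a chromatin-bridging factor and proteins of the LEM family. BANF1 had 9.18 and 18.2 in the nuclear and 69.3 and 68.3 in the cytosolic libraries, a change of -2.33 (SE 0.40, edgeR adjusted p = 0.00111). The partner count fell from 10 to 6 without nuclear replicate 1 or cytosolic replicate 1. Between lamina and fraction libraries none of the 14 passed by edgeR, and 4 had an unadjusted p under 0.05. Over all 16504 tested genes, 0.218% passed in that comparison and 2576 had an unadjusted p under 0.05. Against the cytosolic fraction alone, 5 partners were higher and 1 lower in native lamina, where 13.8% of all genes passed. Against the nuclear fraction alone, 3 were higher in fixed lamina, where 17.4% passed. None passed in native lamina against nuclear or fixed lamina against cytosolic.

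Of the 4 lamin kinases and proteases, 3 were lower in the nuclear fraction (PRKCB, PRKCA and CDK1), and CASP6, which cleaves lamins in apoptosis, did not pass, where 47.3% of all genes passed. The median was -0.93, beside 0.13 over all genes. PRKCB, a protein kinase C gene, had -1.25 (SE 0.29, edgeR adjusted p = 0.00466), and 0.052 without cytosolic replicate 2. The count of 3 fell to 1 without nuclear replicate 2 and without either cytosolic replicate. PRKCB was higher in native and in fixed lamina than in the nuclear fraction, where 7.31% and 17.4% of all genes passed. CDK1 and CASP6 were lower in native lamina than in the cytosolic fraction, where 13.8% passed. CDK1 was also lower in fixed lamina than in the cytosolic fraction, where 0.673% passed. Between lamina and fraction libraries, 0.218% of all tested genes passed. CDK1, the kinase that phosphorylates lamins when the lamina disassembles in mitosis, was the single listed gene of 36 tested that passed there. It had 77.0 and 97.1 normalised CPM in the nuclear, 141 and 162 in the cytosolic, 42.6 and 66.2 in the native lamina and 45.8 and 50.8 in the fixed lamina libraries. All 4 lamina libraries lay below all 4 fraction libraries, and the change was -1.17 (SE 0.21, edgeR adjusted p = 0.0448). Its adjusted p lay between 0.127 and 0.197 when either nuclear replicate, either cytosolic replicate or native replicate 1 was left out.

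Of 16 other intermediate filament genes, the relatives of lamins outside the nucleus, 13 passed the filter. Between the fractions 7 were lower in the nuclear fraction (NEFL, VIM, KRT8, KRT18, INA, NEFM and KRT10), 3 were higher (GFAP, NES and SYNM) and 3 did not pass, where 47.3% of all genes passed. The median was -1.01, beside 0.13 over all genes. NEFL, a neurofilament subunit, had -2.34 (SE 0.31, edgeR adjusted p = 5.67e-04). VIM, vimentin, had 277 and 300 normalised CPM in the nuclear and 1280 and 1440 in the cytosolic libraries, a change of -2.23 (SE 0.31, edgeR adjusted p = 6.24e-04). LMNB2, at -1.88, lay among these genes, while LMNB1 and LMNA were closer to 0. GFAP had 45 and 29 counts in the nuclear and 19 and 2 in the cytosolic libraries, and its change of 1.91 (SE 0.73, edgeR adjusted p = 0.046) was lost under scaling to total counts (0.0824), and without either nuclear replicate, cytosolic replicate 2 or either native replicate. The count of 10 fell to 6 under total counts and without nuclear replicate 1 or either cytosolic replicate, and to 4 without nuclear replicate 2. Between lamina and fraction libraries none of the 13 passed by edgeR, and 4 had an unadjusted p under 0.05. Over all 16504 tested genes, 0.218% passed in that comparison and 2576 had an unadjusted p under 0.05.

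**Figure D5:**
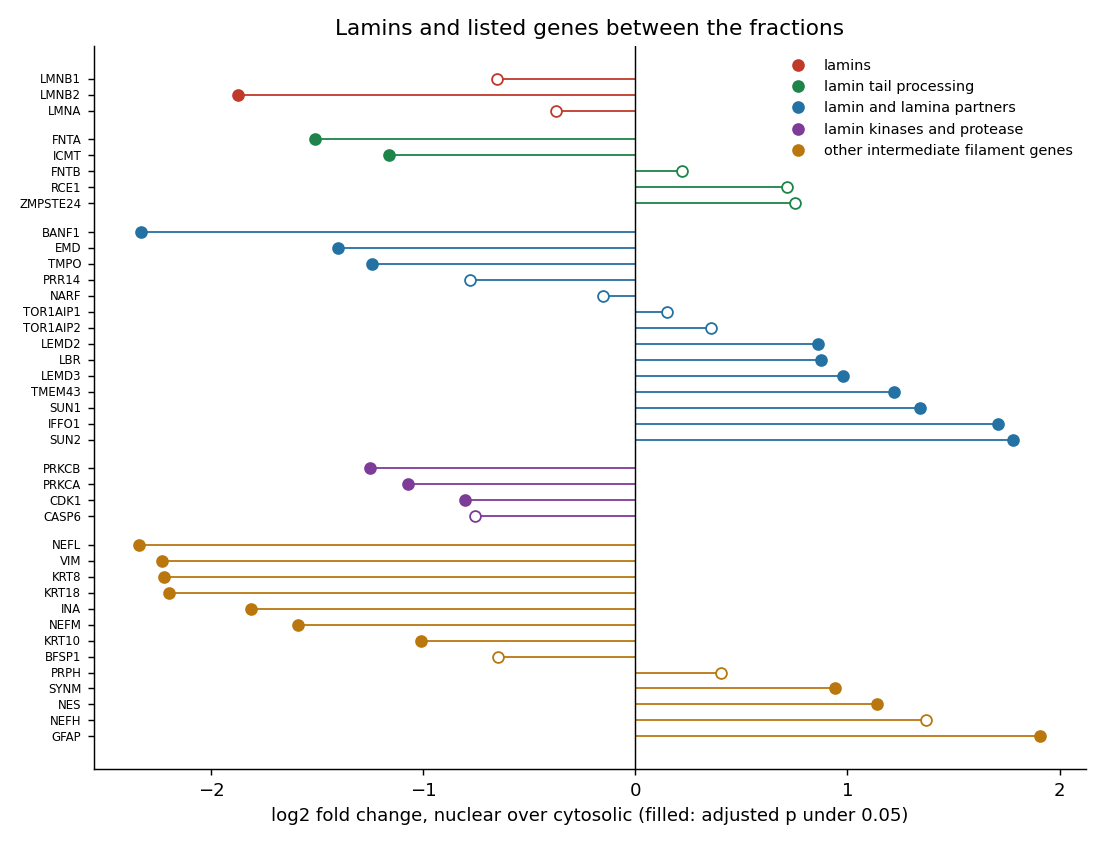
Log2 fold change between the nuclear and cytosolic fractions (horizontal axis, above 0 is higher in the nuclear fraction) for the 3 lamin genes and the 36 listed genes tested; filled points have an edgeR adjusted p under 0.05. LMNB2 at -1.88 is the only filled lamin, partners lie on both sides with 7 filled above 0 and 3 below, and 7 of the other intermediate filament genes are filled below 0.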

How the data were processed

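RNA was measured per gene in 8 libraries. The deposited values are read counts per gene symbol made by the authors with featureCounts 1.5.2 on hg19 and RefFlat, ignoring strand and counting a read for every gene it overlaps, per the file headers. TopHat2 2.1.1 and Bowtie2 2.3.2 are named in the submitters' processing notes. The header of cytosolic replicate 1 carries the output name of nuclear replicate 1 with the input of cytosolic replicate 1, and it was kept as labelled. The deposited HCT116 domain lists hold intervals without scores.

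Genes were filtered with filterByExpr by group and tested in 1 quasi-likelihood fit of all 8 libraries, with TMM factors and no block (edgeR 4.0.16, R 4.3.3). P-values were adjusted by Benjamini-Hochberg over all 16504 genes per comparison, and under 0.05 counted as passing. Normalised CPM use TMM library sizes. Likeness was Pearson's r over genes of at least 10 CPM on average, at least 300 exonic bases and 1 chromosome, and the 3 highest were named. Neighbours were the nearest rows with at least 50 counts in some library. From each list, the called genes with the largest rise and fall between the fractions and between lamina and fraction libraries were named, plus VIM and all processing genes. Members and lists were chosen with earlier results of these data known. The fit was also run on simulated counts with a single spread for all genes and changes in native lamina only. That does not measure its error rates in these libraries. Alternatives were other scaling factors, factors without LMNB1, other filters, DESeq2 1.42.0 (Wald test), a block for the replicate number, fits restricted to the compared groups, and each library left out.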

Additional observations from a re-analysis of the deposited data

How the results depend on the processing

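Of 354 log2 fold changes of the lamins under alternatives, 321 kept their direction and their side of the threshold. Among these are comparisons that had not passed and so had no call to lose. A call was lost in 18, all of LMNB1 or LMNB2, and 15 changed sign, all of LMNA. LMNA, which passed nowhere, changed sign: to 0.11 (native lamina against cytosolic) and 0.19 (lamina against fraction libraries) under total counts, and to -0.0667 with upper-quartile factors and -0.0447 with at least 10 counts in every library (fixed lamina against nuclear). LMNB2 in fixed lamina against nuclear kept 1.18 but not its call (adjusted p = 0.0632) when only those libraries were fitted. Leaving out 1 library moved LMNB1 from 2.97 to 4.52 (native against nuclear), 2.3 to 3.85 (native against cytosolic), 4.6 to 4.85 (fixed against nuclear), 3.79 to 4.39 (fixed against cytosolic), 0.205 to 1.75 (fixed against native), -0.941 to -0.339 (nuclear against cytosolic) and 3.51 to 4.29 (lamina against fractions). It moved LMNB2 from 1.31 to 1.79 (native against nuclear) and 0.96 to 1.44 (fixed against nuclear). It moved LMNA from -0.0049 to 0.43 (native against nuclear), -0.4 to 0.0493 (native against cytosolic), -0.0572 to 0.24 (fixed against nuclear), -0.34 to 0.0942 (fixed against native) and -0.16 to 0.0697 (lamina against fractions). With 1 library left in a group, that library is assumed to vary like the others; the cause of each change was not tested.

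Among the listed genes, RCE1 between lamina and fraction libraries had 0.188 under total counts and, with 1 library left out, -0.203 to 0.0637, FNTA -0.114 to 0.329 and ZMPSTE24 -0.324 to 0.326; ZMPSTE24 had -0.0024 with the replicate block. Deviations of replicate 1 from its group mean correlated weakly between groups. They had 0.32 for native with fixed lamina and 0.28 for nuclear with cytosolic, and elsewhere -0.07 to 0.16. Whether replicate numbers mark shared material was not tested. With the replicate block, passing genes rose from 1207 to 1846 (native against nuclear) and from 36 to 141 (lamina against fractions). No lamin call changed: LMNB1 had 3.95 (lamina against fractions, edgeR adjusted p = 0.00601) and LMNB2 -1.89 between the fractions.

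Counts of passing genes moved by more than 1.5 times: 7811 between the fractions fell to 4073 without nuclear replicate 1, 1207 (native against nuclear) ran from 10 without that library to 4368 with only those libraries, 2271 (native against cytosolic) from 161 without cytosolic replicate 2 to 4302 without fixed replicate 1, 2878 (fixed against nuclear) from 13 without nuclear replicate 1 to 5985 without fixed replicate 2, 111 (fixed against cytosolic) from 0 without nuclear replicate 1 to 2869 without fixed replicate 1, and 36 (lamina against fractions) from 2 without nuclear replicate 1 to 621 without fixed replicate 1. Total counts raised the share of higher calls from 52.9% to 87.5% (native against nuclear), 50.8% to 73.9% (native against cytosolic), 55.2% to 78.7% (fixed against nuclear) and 47.2% to 92.4% (lamina against fractions), and shifted the median over all genes by 0.285, 0.29, 0.166 and 0.228 on the log2 scale. Upper-quartile factors moved that share to 67.6% between the fractions (from 55.2%, median shift 0.268), 38.7% for native and 42.3% for fixed lamina against nuclear (shifts -0.148 and -0.161). The depth of fixed replicate 2 limits LMNA most, at 174 counts.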
